A study of Mus musculus with 30 samples.

Results

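The genes described here are 40 members of the ATF4 stress programme and of amino acid supply, taken by symbol from the exonic and intronic count tables of mouse embryonic stem (ES) cells. All 40 have a row in the exonic table of 20300 genes, and 38 have one in the intronic table of 17916. They comprise 7 regulators of transcription, 4 stress effectors, 6 enzymes of serine and one-carbon metabolism, 5 other amino acid synthesis enzymes, 11 cytosolic tRNA synthetases and 7 amino acid transporters. The cells were of the line EKOiE-Ccna-Gfp (strain 129/Ola), an Esrrb knockout line that carries an Esrrb transgene induced by doxycycline (DOX) and a green fluorescent Ccna2 reporter. Fluorescence sorting gave fractions of early G1, of late G1 and of G2, taken either with DOX or 24 h after DOX was withdrawn. Each of these 6 groups held 3 stranded mRNA libraries. No group of knockout cells without the transgene and no wild-type group treated with DOX was sequenced for RNA, so lower Esrrb and removal of the drug cannot be told apart in any comparison below. All RNA libraries came from a single engineered line, and in such bulk samples fewer cells of a type and less RNA per cell cannot be told apart. Esrrb peak heights given below came from other libraries, of EKOiE cells with DOX or 48 h after withdrawal and of wild-type E14Tg2a cells.

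ATF4 is the transcription factor of the integrated stress response. Kinases that sense amino acid shortage, misfolded protein, heme loss, double-stranded RNA or, through a mitochondrial relay, damaged mitochondria phosphorylate the initiation factor eIF2, which lowers general translation and raises translation of the Atf4 message. ATF4 pairs with C/EBP proteins on composite sites and drives genes that make, import and charge amino acids, together with feedback genes such as Trib3 and Ddit3. Because control of ATF4 lies largely in translation and protein stability, its message need not follow its activity. Doxycycline is a tetracycline, a class of drugs that can also act on mitochondrial ribosomes.

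Between 11.1 and 31.8 M exonic counts and between 6.1 and 20.8 M intronic counts were deposited per library, the most exonic ones for G2 withdrawn replicate 1. Esrrb itself stood at 203 to 278 CPM (counts scaled to library size) with DOX and 140 to 193 CPM after withdrawal in early G1, at 286 to 341 and 160 to 173 CPM in late G1, and at 254 to 304 and 183 to 195 CPM in G2. Withdrawn libraries were thus lower than DOX libraries of the same phase without overlap, and edgeR's quasi-likelihood test gave a log2 change of -0.68 ± 0.08 (SE, adjusted p = 3.75e-05) for the mean of the 3 phases. Reads of the transgene and of the knockout allele were not distinguished. All 10 ES cell markers examined were above 1 CPM on average in every group, with a summed level of 4720 to 6660 CPM over the 18 libraries. The summed level of 10 fibroblast and feeder markers was 9.99 to 17.5 CPM, that of 8 primitive endoderm markers 7.34 to 24.3 CPM, and that of 8 mesendoderm and neural markers 6.49 to 11.7 CPM. Among these markers, Lin28a (log2 change 0.29), Pax6 (0.65) and Cubn (1.04) rose and Gata6 (-1.38) fell on withdrawal in the mean of the phases, and the part of these changes in the results below was not tested. The labels do not tie libraries to separate cultures, and the spread behind each p-value may therefore be technical. Libraries with the same replicate number deviated together, least closely for number 2. The fit with the replicate number as a block is therefore given beside the unblocked one wherever it changes a call.

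The C/EBP-ATF response element, TGATGNAA on either strand, is the composite site that ATF4 dimers are known to bind, and it was searched in RefSeq promoter windows of 300 bases (250 before to 50 after the transcription start, build GRCm38.p6). A window was found for 33 of the 40 members. The element was in 14 of the 33 (42.4%, exact 95% binomial interval 25.5 to 60.8), against 4.51% of 27025 genes with such windows. With TGATGCAA alone the share was 10 of 33 members (30.3%), against 1.03% of genes. The cAMP response element TGACGTCA, the estrogen-related receptor motif AAGGTCA and the ER stress response element, each searched on both strands, were in 0 of the 33 windows, which allows a share of up to 10.6% (exact 95% interval). Those were in 2.03%, 5.38% and 0.137% of all genes' windows. A match is a run of letters and not evidence of binding in these cells.

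The 16 matches in the 14 windows are shown as the sequences behind these shares, and 19 windows had none. Members were chosen as genes of the ATF4 programme and this element is the known site of ATF4. Its share is therefore not independent of the choice of members. Each is oriented so that the element reads TGATGNAA, with the element in capitals and 8 bases on either side in lower case.
Aars (upstream): ggctcggcTGATGCAAtgctcaag
Aars (downstream): gagcgctcTGATGAAAagtgaccc
Asns: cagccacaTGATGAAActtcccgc
Chac1: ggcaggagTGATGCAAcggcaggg
Gars: ccggtgcaTGATGAAAtagcgcag
Iars: tctggaggTGATGCAAtactgaca
Nupr1: gccctgtcTGATGCAAtctggccc
Pck2: taagatacTGATGTAActttgaag
Pycr1: cctgtgtaTGATGCAAtgcacaag
Slc1a4: gctggagaTGATGCAAcgcaggag
Slc7a11 (with the gene): catgtggcTGATGCAAacctggag
Slc7a11 (against the gene): ctgcatgaTGATGCAAattctcca
Tars: taaccagcTGATGCAAcgggactc
Trib3: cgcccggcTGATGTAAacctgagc
Vldlr: aggagcgcTGATGCAActattgct
Yars: agctcagcTGATGCAAcccgacgg
The variable base was C in 11, A in 3 and T in 2 of the 16 sites, and 12 sites ran against the direction of the gene. First bases, read along the gene with the first transcribed base as 1, lay between -200 (Vldlr) and 15 (Trib3).

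Promoters are printed for Asns and Trib3, which were lower after withdrawal, and for Iars, which was higher. Each runs 5′ to 3′ along the gene from 250 bases before the start to 30 after it, with the match in capitals as it reads on that strand (GRCm38.p6; Asns chr6:7693180-7693459, minus strand; Trib3 chr2:152344031-152344310, minus strand; Iars chr13:49681880-49682159, plus strand).
Asns: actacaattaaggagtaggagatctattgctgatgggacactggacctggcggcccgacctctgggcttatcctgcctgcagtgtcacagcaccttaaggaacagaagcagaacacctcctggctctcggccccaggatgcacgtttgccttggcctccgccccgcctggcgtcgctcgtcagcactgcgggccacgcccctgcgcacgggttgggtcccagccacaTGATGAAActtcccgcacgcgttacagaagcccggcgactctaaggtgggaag
Trib3: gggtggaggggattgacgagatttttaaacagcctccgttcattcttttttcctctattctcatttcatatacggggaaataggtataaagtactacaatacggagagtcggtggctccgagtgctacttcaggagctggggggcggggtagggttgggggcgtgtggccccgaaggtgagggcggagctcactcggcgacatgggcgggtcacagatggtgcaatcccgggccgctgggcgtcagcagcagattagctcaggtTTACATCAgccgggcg
Iars: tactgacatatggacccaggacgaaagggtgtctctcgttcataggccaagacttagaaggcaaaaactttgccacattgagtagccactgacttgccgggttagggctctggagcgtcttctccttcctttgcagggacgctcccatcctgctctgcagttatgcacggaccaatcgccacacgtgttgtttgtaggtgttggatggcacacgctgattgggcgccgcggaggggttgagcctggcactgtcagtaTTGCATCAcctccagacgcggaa
These 3 were chosen as called members that carry a match, so the presence of the element in each was fixed by the choice. Of the other called members, Atf4, Cebpb and Psat1 have windows without a match and Lars has no window.

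Withdrawal of DOX was compared with DOX in each phase over all 14092 exonic genes that passed a filter on low counts, all 40 members among them. No member passed an adjusted p of 0.05 within a single phase, where the share of all tested genes called was 0.163% for early G1, 0.461% for late G1 and 0.972% for G2. The numbers of members under an unadjusted p of 0.05 were 2, 3 and 5 of 40. Of the 14092 genes, 1357, 1847 and 2034 were, so these member counts are not a result about the members. With DESeq2, 1 member (Cebpb) was called in early G1 and none in the other phases, against 0.986%, 2.41% and 3.26% of all genes. With the replicate block, Cebpb, Asns and Atf4 fell and Ddit4 rose in early G1. Atf4, Asns, Trib3 and Sesn2 fell in late G1, and Atf4, Trib3 and Cebpb in G2. These 4, 4 and 3 members stand against 4.03%, 9.04% and 11.2% of all genes. The median change of the members was 0.05, -0.02 and 0.14 on the log2 scale in the 3 phases in that order, and that of all genes was 0.00, 0.00 and -0.01.

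Over the mean of the 3 phases, Cebpb, Trib3, Asns and Atf4 fell and Iars, Lars and Psat1 rose (edgeR, adjusted p under 0.05). That is 10% and 7.5% of the 40 members, near the 8.47% of all genes that fell and the 8.43% that rose, so the number of members called is not a result about them. With the replicate block 8 members fell and 7 rose, against 18% of all genes in each direction. Those added were Cebpg, Sesn2, Pck2 and Slc1a4 among the lower genes and Ddit4, Shmt2, Yars and Slc7a1 among the higher. Libraries of different phases with the same number and DOX state also deviated together, so the 18 libraries are not fully independent in this comparison. When counts were summed over the phases, leaving 3 libraries against 3, no member passed (0.155% of all genes did). With the summed counts and the block, Atf4, Cebpb, Trib3 and Asns fell and Ddit4 rose, 5 of 40 against 11.7% of all genes. The other members called with the block missed there, with edgeR's adjusted p between 0.0527 (Psat1) and 0.265 (Cebpg). Iars, Lars and Psat1, the members that rose without the block, were among those that missed. Calls also rested on single libraries: the 7 calls became 2 without G2 withdrawn replicate 1, 3 without late G1 withdrawn replicate 2 or late G1 DOX replicate 2, and 4 without early G1 or G2 DOX replicate 2. Of the 7, Cebpb and Iars passed in each of the 18 fits that left out 1 library. Those fits keep the libraries of different phases that deviated together, so they cannot show that a call withstands that dependence.

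Members whose 3 withdrawn libraries all lay below the 3 DOX libraries numbered 1 (Cebpb), 3 (Atf5, Asns and Pck2) and 2 (Cebpb and Asns) in the order early G1, late G1, G2, against 7.66%, 9.02% and 10% of all genes. Members with all withdrawn libraries higher numbered 0, 1 and 6, against 6.78%, 8.14% and 8.96%. The 6 in G2 were Psat1, Shmt2, Iars, Lars, Nars and Tars, an aminotransferase, a hydroxymethyltransferase and 4 synthetases. In same-numbered pairs, withdrawn was lower in 9 of 9 for Atf4, Cebpb, Trib3, Sesn2, Asns and Pck2 (6 members, 15% against 8.86% of all genes) and higher in 9 of 9 for Psat1 alone (8.53% of all genes). The 6 genes lower in every pair are 3 regulators, an effector and 2 enzymes. The 9 pairs repeat 3 replicate numbers over 3 phases that deviated together, so they are not 9 independent pairs.

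**Figure D1:**
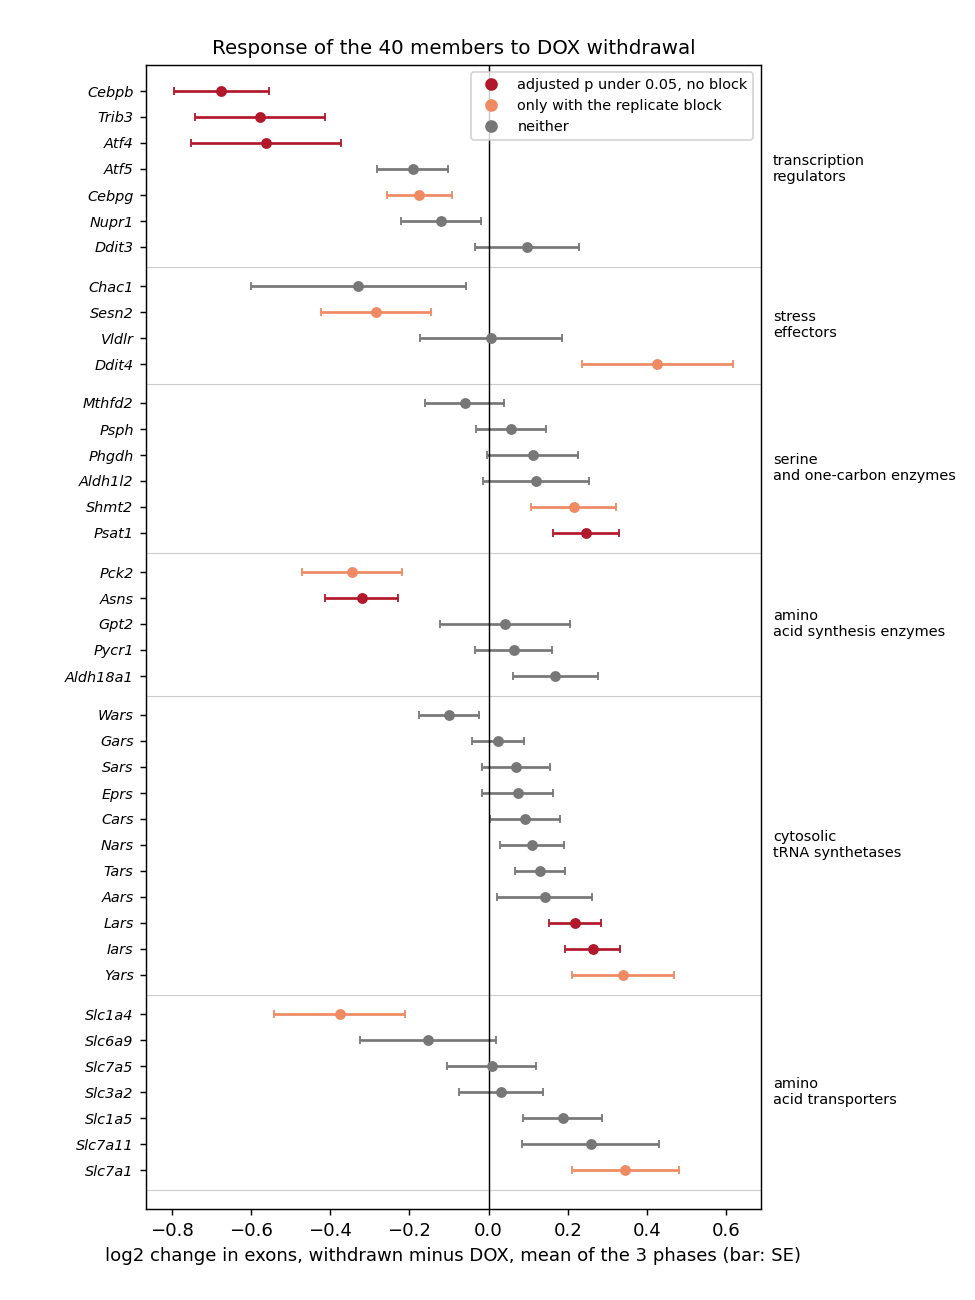
Log2 change in exons after DOX withdrawal, as the mean of the 3 phases, for the 40 members ordered by role and by change (points, edgeR estimates; bars, SE; dark red, called without the block; orange, called with the replicate block only; grey, neither). In the group of regulators 6 of 7 points lie below 0, and in that of tRNA synthetases 10 of 11 lie above 0. Of all tested genes 50.7% lie below 0, and a difference between roles was not tested.

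Among the regulators, Atf4, Cebpb and Trib3 fell, and 6 of 7 had a change below 0 (range -0.68 to 0.10, median -0.19). Atf4 encodes the transcription factor itself (NM_009716, mm9 chr15:80085613-80087975, plus strand). In early G1 it stood at 200, 297 and 346 CPM with DOX (replicates 1 to 3) and at 153, 199 and 264 CPM after withdrawal. In late G1 the values were 221, 301 and 392 CPM with DOX and 140, 188 and 291 CPM after withdrawal, and in G2 they were 224, 418 and 353 CPM against 127, 211 and 285 CPM. The groups overlapped in each phase, replicate 1 was the lowest library of every group, and each withdrawn library was below its same-numbered partner. The log2 change was -0.45 for early G1, -0.56 for late G1, -0.68 for G2 and -0.56 ± 0.19 (SE) for their mean (edgeR, adjusted p = 0.0492, and 1.31e-05 with the replicate block). This call without the block was lost under another scaling, without the filter on low counts, and in 12 of 18 fits that left out 1 library (adjusted p up to 0.111). With the block Atf4 fell in each phase (adjusted p = 0.0493 in the first of these phases, 0.00868 in late G1 and 0.00204 in G2).

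Cebpb encodes C/EBP beta, a partner of ATF4 and itself a reported target (NM_009883, chr2:167514414-167515932, plus strand). It was expressed at a low level, with 16.9, 9.62 and 11.9 CPM in early G1 with DOX and 7.22, 6.74 and 6.29 CPM after withdrawal. The corresponding values were 10.0, 9.83 and 6.81 against 7.29, 5.42 and 6.45 CPM in late G1, and 8.20, 8.54 and 9.72 against 5.12, 5.96 and 6.11 CPM in G2. The groups did not overlap in early G1 and G2 and overlapped in late G1, where DOX replicate 3 was low. The mean change was -0.68 ± 0.12 (SE, adjusted p = 0.00122), and in early G1 alone it was -0.92, or -0.68 without DOX replicate 1.

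Trib3 encodes a pseudokinase that feeds back on ATF4 (NM_175093, chr2:152163160-152169796, minus strand). Levels with DOX were 23.4, 46.9 and 40.5 CPM in early G1, 30.7, 48.0 and 45.8 CPM in late G1 and 29.5, 58.5 and 38.6 CPM in G2. After withdrawal they were 22.5, 30.3 and 26.3 CPM, 22.6, 23.7 and 35.2 CPM, and 19.5, 27.6 and 34.0 CPM. Replicate 1 was low in both states, so the groups overlapped in each phase although every same-numbered pair was lower after withdrawal. The mean change was -0.58 ± 0.16 (SE, adjusted p = 0.0226, and 0.000278 with the block).

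Ddit3 encodes CHOP, a C/EBP family protein induced late in the stress response (NM_001290183, chr10:126727848-126733344, plus strand). It had 23.1, 22.3 and 18.7 CPM with DOX against 33.4, 17.5 and 25.5 CPM in early G1, 23.6, 26.8 and 19.9 against 29.5, 18.4 and 22.0 CPM in late G1, and 24.5, 21.4 and 17.9 against 27.5, 17.8 and 20.3 CPM in G2. Withdrawn replicate 2 was below all DOX libraries of its phase and replicate 1 above them, and the mean change of 0.10 ± 0.13 did not pass (edgeR, adjusted p = 0.657). Cebpg, a C/EBP partner of ATF4, had a change of -0.18 and was called only with the block (adjusted p = 0.028). With summed counts and the block Cebpg missed (edgeR, adjusted p = 0.265). Atf5, a relative of ATF4 that takes part in the mitochondrial stress response, and Nupr1, a small stress-induced chromatin protein, had changes of -0.19 and -0.12 and were called in neither fit.

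**Figure D2:**
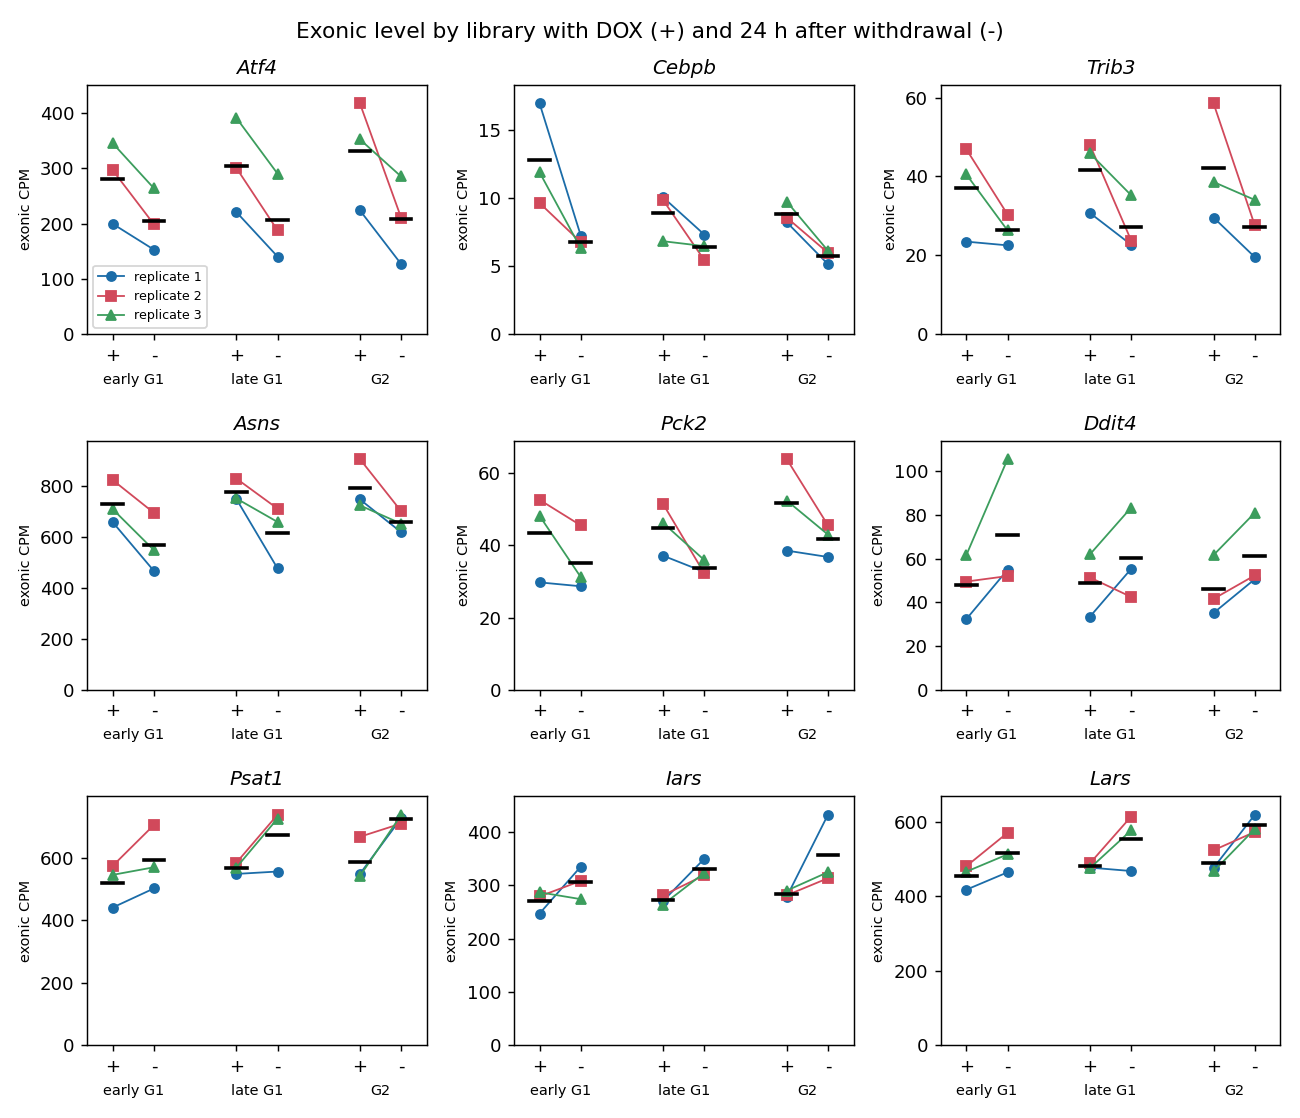
Exonic level (CPM, linear axis from 0) of 9 members in each of the 18 libraries, with DOX (+) and 24 h after withdrawal (-) in each phase. Lines join same-numbered libraries and black bars are group means; the lines of Atf4 fall in 9 of 9 pairs and those of Psat1 rise in 9 of 9.

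The 4 stress effectors did not move as 1 group, with 2 changes above 0 and 2 below (median -0.14), and none was called without the block. Ddit4, which encodes the mTORC1 inhibitor REDD1, was higher after withdrawal in 8 of 9 pairs. It stood at 32.3, 49.5 and 61.6 CPM with DOX against 54.9, 52.0 and 106 CPM in early G1, 33.4, 51.3 and 61.9 against 55.3, 42.4 and 83.4 CPM in late G1, and 35.1, 41.5 and 61.6 against 50.6, 52.3 and 81.0 CPM in G2. Replicate 3 was the highest library of every group, and the groups overlapped in each phase. The mean change of 0.43 ± 0.19 had an adjusted p of 0.135, and 0.00116 with the block, with which Ddit4 rose. The early G1 change of 0.57 became 0.17 without withdrawn replicate 3 of that phase.

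Sesn2, a sensor protein that restrains mTORC1, was lower in 9 of 9 pairs (change -0.28 ± 0.14, adjusted p = 0.17, and 0.00754 with the block). With summed counts and the block Sesn2 missed (edgeR, adjusted p = 0.128). Chac1 encodes an enzyme that degrades glutathione and is among the most inducible ATF4 targets (NM_026929, chr2:119176977-119180062, plus strand). Its counts were low, with 37 in the lowest library, and it stood at 3.01, 5.37 and 5.44 CPM with DOX against 3.18, 4.40 and 2.80 CPM in early G1. In late G1 it had 4.49, 5.21 and 10.0 against 2.18, 5.30 and 8.37 CPM, and in G2 3.63, 6.64 and 5.18 against 1.91, 4.24 and 6.89 CPM. The groups overlapped in each phase, and the mean change of -0.33 ± 0.27 did not pass in any fit (adjusted p = 0.435, and 0.128 with the block). Vldlr, a lipoprotein receptor reported as an ATF4 target, had a change of 0.01.

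Of the 6 serine and one-carbon enzymes, Psat1 rose and 5 of 6 had a change above 0 (range -0.06 to 0.25, median 0.12). Psat1 encodes the aminotransferase of the serine synthesis pathway (NM_177420, chr19:15979612-15999549, minus strand). Its levels with DOX were 441, 575 and 546 CPM in early G1, 548, 584 and 569 CPM in late G1 and 549, 667 and 542 CPM in G2. After withdrawal they were 502, 705 and 570 CPM, 556, 738 and 726 CPM, and 726, 710 and 737 CPM. All G2 libraries after withdrawal were above all G2 libraries with DOX, while both G1 phases overlapped. The mean change was 0.25 ± 0.08 (SE, adjusted p = 0.0488, and 0.00344 with the block), and it lost the call without the block in 13 of 18 fits that left out 1 library. Shmt2, the mitochondrial serine hydroxymethyltransferase, had a change of 0.22 and was called with the block (adjusted p = 0.0228). With summed counts and the block Shmt2 missed (edgeR, adjusted p = 0.135). Phgdh (0.11) and Psph (0.06), the first and last enzymes of the same serine pathway, and Mthfd2 (-0.06) and Aldh1l2 (0.12), mitochondrial folate enzymes, were called in neither fit.

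The amino acid synthesis enzymes divided, with Asns lower and 3 of 5 changes above 0 (median 0.04). Asns encodes asparagine synthetase, a standard readout of ATF4 activity (NM_012055, chr6:7625170-7643182, minus strand). In early G1 it stood at 657, 822 and 707 CPM with DOX and 465, 693 and 547 CPM after withdrawal. In late G1 it had 748, 828 and 750 against 475, 710 and 657 CPM, and in G2 746, 904 and 722 against 617, 700 and 651 CPM. The groups did not overlap in late G1 and G2, and in early G1 only withdrawn replicate 2 reached the DOX range. Asns fell by 0.32 ± 0.09 on the log2 scale (SE, adjusted p = 0.0236, and 0.000293 with the block), a call lost in 5 of 18 fits that left out 1 library.

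Pck2 encodes the mitochondrial phosphoenolpyruvate carboxykinase, another reported ATF4 target. It had 29.8, 52.7 and 48.2 CPM with DOX against 28.7, 45.6 and 31.2 CPM in early G1, 37.2, 51.5 and 46.3 against 32.6, 32.3 and 35.9 CPM in late G1, and 38.6, 64.0 and 52.5 against 36.8, 45.6 and 43.0 CPM in G2. The groups were apart in late G1 and overlapped in the other phases through the low DOX replicate 1. The mean change of -0.34 ± 0.13 had an adjusted p of 0.0698, and 0.00282 with the block, with which Pck2 fell. With summed counts and the block Pck2 missed (edgeR, adjusted p = 0.0644). Gpt2 (0.04), an alanine aminotransferase, and Pycr1 (0.06) and Aldh18a1 (0.17), enzymes of proline synthesis, were called in neither fit.

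Among the 11 cytosolic tRNA synthetases, which charge tRNAs with amino acids, Iars and Lars rose and 10 of 11 had a change above 0 (range -0.10 for Wars to 0.34 for Yars, median 0.11). In G2 the median was 0.19. DOX replicate 1, averaged over the phases, lay below the gene's own mean for every synthetase, from -0.038 (Gars) to -0.608 (Yars) in log2. DOX replicates 2 and 3 lay on both sides of that mean. Iars encodes the isoleucine enzyme (NM_172015, chr13:49777498-49829636, plus strand). It stood at 247, 279 and 287 CPM with DOX and 335, 308 and 274 CPM after withdrawal in early G1, at 271, 281 and 264 against 349, 319 and 323 CPM in late G1, and at 278, 281 and 290 against 432, 313 and 324 CPM in G2. Only in early G1 did the groups overlap, through withdrawn replicate 3, and the highest value was that of the deepest library. The mean change was 0.26 ± 0.07 (SE, adjusted p = 0.0163), and 0.21 without that library. With summed counts and the block Iars missed (edgeR, adjusted p = 0.0899).

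Lars, the leucine enzyme, had 418, 481 and 467 against 465, 571 and 513 CPM in early G1, 478, 489 and 476 against 468, 615 and 578 CPM in late G1, and 477, 524 and 467 against 620, 573 and 581 CPM in G2. Withdrawn libraries were higher in 8 of 9 pairs, and the groups were apart in G2. The mean change was 0.22 ± 0.07 (SE, adjusted p = 0.0294), and was lost in 7 of 18 fits that left out 1 library. Yars, the tyrosine enzyme, had 73.7, 128 and 155 against 132, 146 and 145 CPM in early G1, 102, 126 and 160 against 154, 154 and 191 CPM in late G1, and 107, 148 and 156 against 205, 151 and 191 CPM in G2. The groups overlapped in each phase, and DOX replicate 1 was the lowest library of each. The mean change of 0.34 ± 0.13 had an adjusted p of 0.0776, and 0.00634 with the block. With summed counts and the block Yars missed (edgeR, adjusted p = 0.0693). Aars, Cars, Gars, Nars, Sars, Tars, Wars and Eprs had changes between -0.10 and 0.14 and were called in neither fit.

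The 7 transporters lay on both sides of 0 (5 above, 2 below, median 0.03), and none was called without the block. Slc7a1, a cationic amino acid carrier, had 37.0, 67.7 and 78.6 CPM with DOX against 70.8, 82.8 and 68.7 CPM in early G1, 53.3, 66.3 and 73.0 against 77.1, 60.0 and 96.1 CPM in late G1, and 53.3, 67.5 and 80.2 against 106, 78.7 and 95.9 CPM in G2. The groups overlapped in each phase, with DOX replicate 1 the lowest of its group every time. The mean change was 0.35 ± 0.14 (adjusted p = 0.0874, and 0.0159 with the block). With summed counts and the block Slc7a1 missed (edgeR, adjusted p = 0.0793). Slc1a4, a carrier of alanine, serine and cysteine, lay in the opposite direction. It had 30.1, 62.1 and 62.8 CPM with DOX against 30.5, 48.0 and 38.3 CPM in early G1, 34.3, 56.2 and 47.5 against 28.8, 29.4 and 46.3 CPM in late G1, and 35.4, 63.3 and 59.1 against 33.6, 48.6 and 44.2 CPM in G2. The groups overlapped in each phase, DOX replicate 1 being the lowest of its group, and the mean change was -0.38 ± 0.17 (adjusted p = 0.13, and 0.00565 with the block). With summed counts and the block Slc1a4 missed (edgeR, adjusted p = 0.0577). Slc7a5 (0.01) and Slc3a2 (0.03), which form the large neutral amino acid exchanger, and Slc1a5 (0.19), Slc7a11 (0.26) and Slc6a9 (-0.15), carriers of glutamine, cystine and glycine, were called in neither fit.

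Much of the spread among these genes lay between replicate numbers. In early G1 DOX replicate 1 the members were low, with a median of -0.43 against each gene's own mean over the 18 libraries (log2 of CPM with 0.5 added). The medians of the other 17 libraries lay between -0.24 (early G1 withdrawn replicate 1) and 0.23 (G2 withdrawn replicate 1). In early G1 DOX replicate 1 the transporters stood at -0.50, the serine and one-carbon enzymes at -0.48 and the synthetases at -0.35, while the regulators stood at 0.05. Without that library the median response of the members in early G1 was -0.09 in place of 0.05. The stress effectors varied most by number after withdrawal, with medians of -0.66, -0.31 and 0.58 for late G1 replicates 1 to 3.

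**Figure D3:**
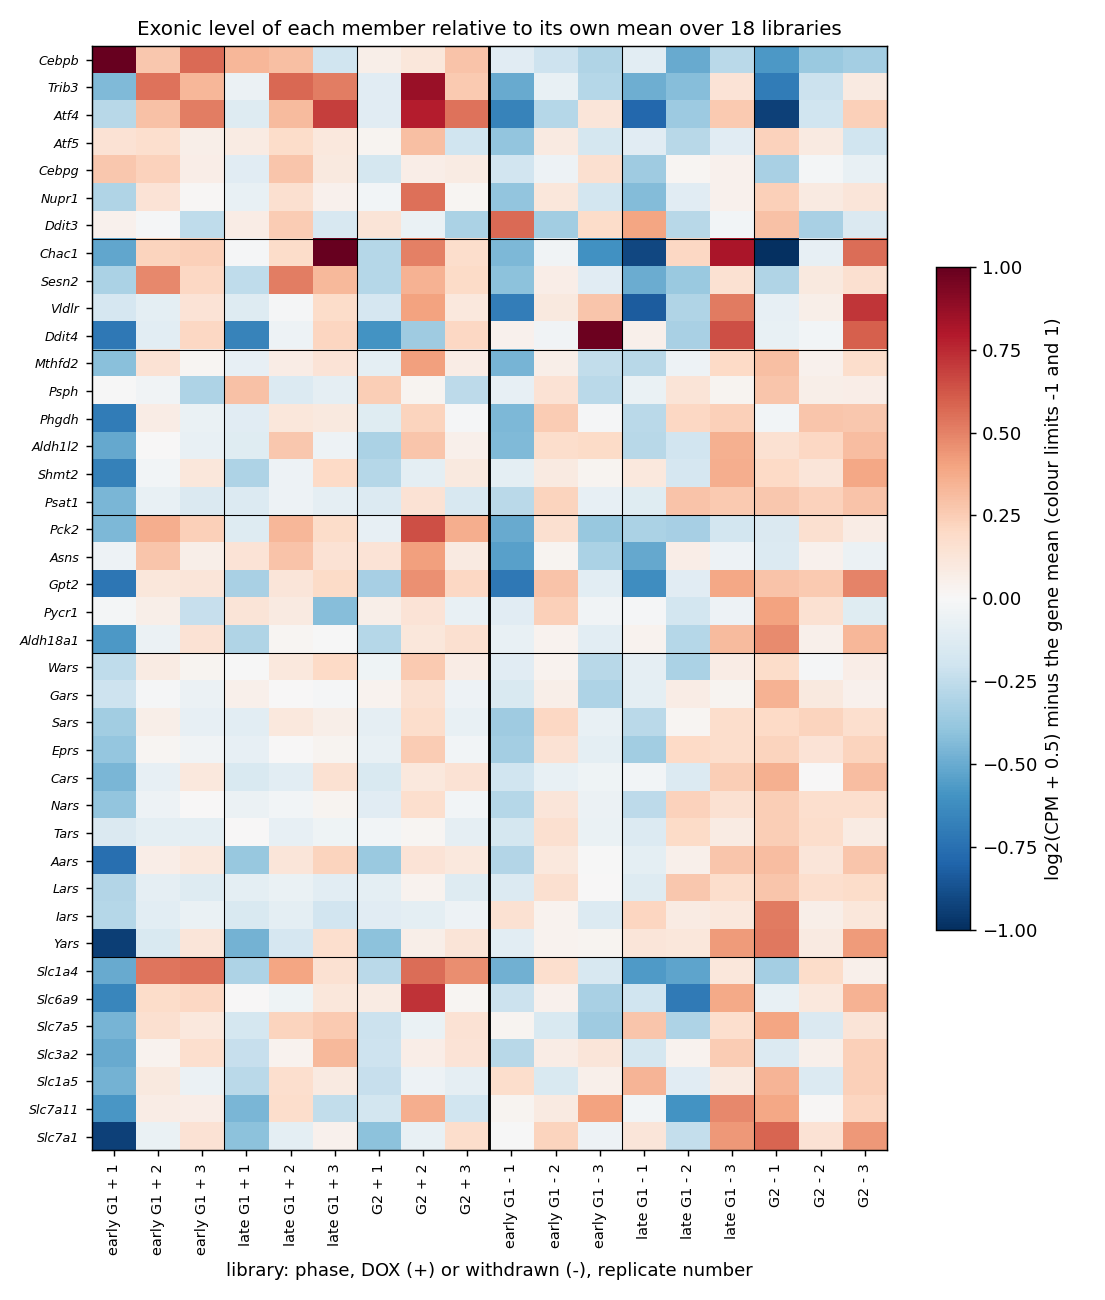
Exonic level of the 40 members (rows, by role) in the 18 libraries (columns; + with DOX, - withdrawn), as log2(CPM + 0.5) minus the gene's mean over all libraries, with the colour scale ending at -1 and 1. The first column, early G1 DOX replicate 1, is low in most rows (median -0.43).

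Intronic reads, an indirect reading of unspliced RNA, were tested for 36 members; Atf4 and Cebpb have no intronic row, and Ddit4 and Chac1 had too few reads. No member passed in a single phase, where 0%, 0.0142% and 0.0142% of 14075 genes did in the same order of phases. Over the mean of the phases Slc7a5 and Ddit3 fell and no member rose (1.62% of all genes fell and 1.95% rose). With the replicate block 9 of 36 members (25%) fell, against 7.44% of all genes, and none rose, against 7.81%. The 9 were Ddit3, Slc7a5, Cebpg, Asns, Slc1a4, Atf5, Tars, Sesn2 and Trib3. Scaling factors (TMM) of the intronic libraries ran from 0.667 to 1.167 with DOX and from 0.8925 to 1.233 after withdrawal. In exons they ran from 0.931 to 1.044 over all libraries. The part of this wider intronic spread in the intronic calls was not tested. In G2 with the block 2 fell, Asns (adjusted p = 0.0434) and Slc1a4 (0.0137), against 0.675% of all genes that fell in that fit. The median intronic change of the members was -0.11, against 0.00 for all genes, where the exonic median was 0.06. With DESeq2, 4 members fell (Slc7a5, Ddit3, Slc1a4 and Atf5), against 2.65% of all genes. With counts summed over the phases edgeR called none, as for all genes (0%), while 4 of 38 members and 1007 of 14966 genes had an unadjusted p under 0.05. With summed counts and the block Slc1a4, Asns, Slc7a5 and Atf5 fell, 4 of 38 against 1.47% of all genes, so that Ddit3, Cebpg, Tars, Sesn2 and Trib3 of the 9 lost their calls.

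Slc7a5 introns stood at 122, 157 and 142 CPM with DOX against 107, 124 and 101 CPM in early G1, 147, 154 and 146 against 120, 102 and 104 CPM in late G1, and 153, 162 and 149 against 142, 125 and 103 CPM in G2. The groups did not overlap in late G1 and G2, and all 9 pairs were lower after withdrawal. The intronic change was -0.37 ± 0.08 (SE, adjusted p = 0.0129), while the exonic change was 0.01 ± 0.11. Ddit3 introns had 51.3, 59.8 and 47.6 against 47.5, 40 and 38.3 CPM in early G1, 57.6, 53.0 and 50.8 against 43.0, 33.4 and 40.6 CPM in late G1, and 54.7, 61.1 and 47.2 against 54.9, 37.3 and 42.3 CPM in G2. The groups were apart in early G1 and late G1. The change was -0.35 ± 0.09 (adjusted p = 0.0309), against 0.10 ± 0.13 in exons, and it lost the call in 12 of 18 fits that left out 1 library. The difference between layers was not tested for either gene.

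Asns introns had 126, 119 and 126 against 77.1, 105 and 121 CPM in early G1, 101, 133 and 129 against 72.8, 115 and 102 CPM in late G1, and 98.5, 147 and 126 against 61.7, 109 and 98.4 CPM in G2. All 9 pairs were lower, and the change of -0.36 ± 0.12 in introns was close to the -0.32 ± 0.09 in exons (intronic adjusted p = 0.122, and 0.000943 with the block). Withdrawn was also lower in 9 of 9 intronic pairs for Cebpg, Sesn2 and Slc7a5, making 4 of 36 members against 3.55% of all genes. Intronic changes of the synthetases had a median of -0.02, with 3 of 11 above 0, where 10 of 11 were above 0 in exons. Over all 36 members, 10 were below 0 in both layers, 7 above 0 in both, 18 above 0 in exons and below 0 in introns, and 1 the reverse.

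**Figure D4:**
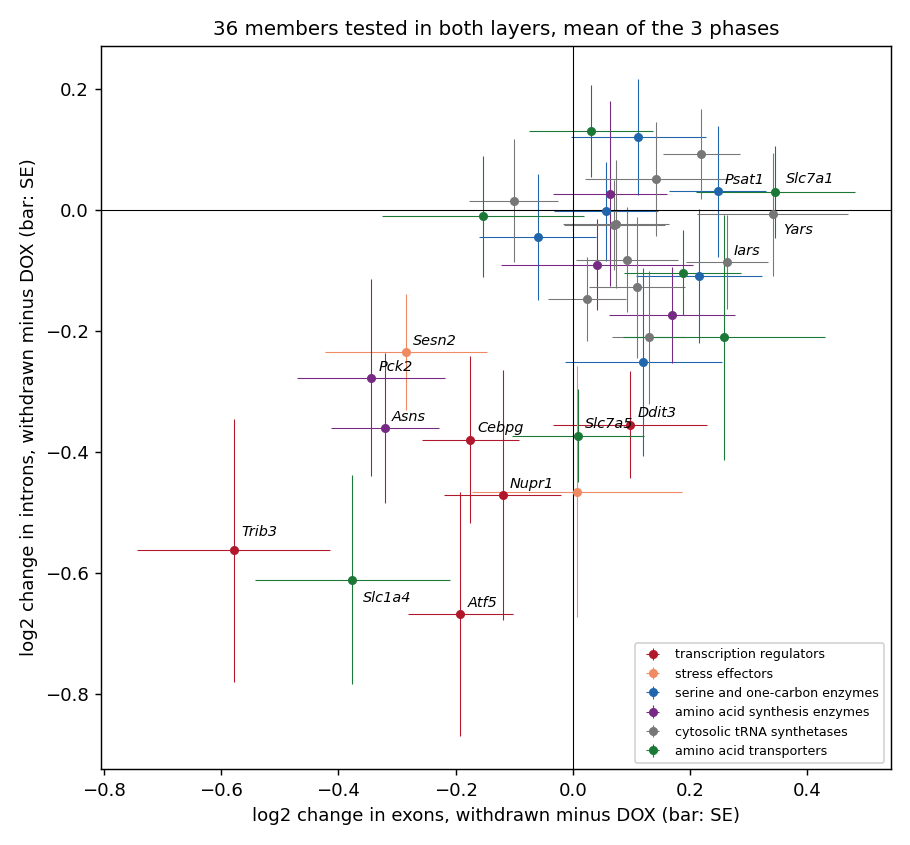
Log2 change after DOX withdrawal in exons (horizontal) and introns (vertical) for the 36 members tested in both, as the mean of the 3 phases (bars, SE; colours, roles). Trib3, Asns, Slc1a4, Pck2, Sesn2 and Cebpg lie below 0 on both axes, and 18 members lie to the right of 0 and below it.

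Levels were next compared between sorted phases within each DOX state, and responses between phases. No gene passed in any of the 3 phase comparisons with DOX, the 3 after withdrawal, or the 3 differences in response, so the background was 0% in all 9 and no member was called, nor was any with the replicate block or DESeq2. With DOX, 136, 319 and 174 genes were under an unadjusted p of 0.05 for late G1 minus early G1, G2 minus early G1 and G2 minus late G1, and 1, 1 and 0 members. After withdrawal these were 184, 588 and 356 genes and 0, 3 and 0 members, and for the differences in response 36, 64 and 72 genes and no member. In direction, 35 of 40 members were higher in late G1 than in early G1 with DOX, against about 50% of all genes, but this turned to 14 of 40 without early G1 DOX replicate 1. For G2 minus early G1 with DOX, 34 of 40 were higher, and 22 of 40 without that library. After withdrawal, 36 of 40 were higher in G2 than in early G1, with a median of 0.23, and 32 to 37 were when 1 library was left out. The response to withdrawal was higher in G2 than in late G1 for 36 of 40 members (23 to 39 when 1 library was left out) and higher in G2 than in early G1 for 33 (23 to 38). These comparisons share groups and are not independent of each other. As no gene was called between phases, the phase names rest on the sorting, and these directions are not shown to be effects of phase.

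The members with a C/EBP-ATF match were set beside those without one, as a description. The 14 with a match had a median exonic change of 0.02, with 6 below 0, and the 19 with a window but no match had 0.06, with 7 below 0. In introns the medians were -0.21 over 13 tested and -0.03 over 16. Trib3, Asns, Pck2 and Slc1a4, 4 of the 8 genes that fell with the block, carry a match, as do Iars and Yars among the 7 that rose. Atf4 and Cebpb have windows without one.

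Esrrb binding was taken from the authors' deposited list of 14559 peaks in mm9, for which heights in interphase are in log2. A peak centre lay within 10 kb of the start of 16 of 40 members (40%, exact 95% binomial interval 24.9 to 56.7), against 21.6% of all 20300 genes. At 50 kb the shares were 67.5% and 51%. All 40 members passed the filter on low counts, whereas 14092 of the 20300 genes did. The share among genes that passed was not computed, so these shares do not show peaks to be particular to the members. Interphase libraries came from EKOiE cells with DOX (replicates 1, 3 and 4), from wild-type E14Tg2a (replicate 2), and from EKOiE 48 h after withdrawal (2 libraries). Atf4 had a peak 1.06 kb before its start (chr15:80083951-80085150). Its heights were 0.63, 0.52, 0.25 and 0.96 in the EKOiE libraries with DOX and the wild-type one, and -0.99 and -0.28 after withdrawal. The peak 1.19 kb before Asns (chr6:7643401-7645350) had 1.24, 2.41, 1.69 and 1.98 against -1.30 and -1.13. Both are in the classes the authors call Bookmarked, as is a peak 6.57 kb before Slc7a1, and the other peaks within 10 kb of members are called Lost. Trib3 had a Lost peak 5.58 kb before its start, and Ddit3 a pair of Lost peaks, 0.95 kb before and 0.10 kb after it. Heights after withdrawal were below those of all EKOiE libraries with DOX and of the wild-type one at each of these peaks. The sites came from a list of Esrrb peaks, so this direction was largely set by that choice and is no result about the members. The 16 members with a peak within 10 kb had a median exonic change of 0.04, and the 24 without one had 0.07. Of the 4 members that fell without the block, Atf4, Trib3 and Asns had such a peak and Cebpb had none, and of the 3 that rose none had one. With the block, of those with a peak Atf4, Trib3, Asns and Sesn2 fell and Slc7a1 and Shmt2 rose, and of those without one 4 fell and 5 rose.

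The rest of the pathway was read from lists of other genes. Their counts stand beside the 8.47% of all genes that fell and the 8.43% that rose, or 18% in each direction with the block, so 1 or 2 calls in a list of this size are no result about the list. Of 17 tested genes among 18 other reported ATF4 targets, 3 fell and 1 rose over the mean of the phases, with a median of -0.10. Jdp2 (-1.12 ± 0.19, adjusted p = 0.000934) and Atf3 (-1.13 ± 0.28, adjusted p = 0.00957), both transcription factors that bind with the ATF family, and Gdf15 (-0.73 ± 0.23, adjusted p = 0.0346), a secreted stress hormone, fell. Xpot, the exportin of tRNAs, rose by 0.27. With the block 5 of the 17 fell and 6 rose. Jdp2 and Atf3 also fell in introns (-0.87 and -1.04). Among 12 other cytosolic synthetases and cofactors, Vars (0.35) and Farsb (0.26) rose and none fell, with a median of 0.14, and 6 rose with the block. Among 17 mitochondrial synthetases none was called, with a median of -0.09, and with the block 2 fell and 1 rose.

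No gene of the lists in this and the preceding paragraph was called from counts summed over the phases. Of 12 genes for eIF2 kinases, phosphatase subunits and eIF2B, Eif2ak1, the heme-sensing kinase, rose by 0.31 ± 0.08 and Eif2b3 by 0.24 ± 0.07, and none fell. Among 16 genes of mitochondrial protein quality control and stress relay, Spg7, a protease of the inner membrane, fell by 0.28 ± 0.05 and none rose. With the block Oma1, Dele1 and Clpx also fell and Hspd1 rose. Among 23 genes of the endoplasmic reticulum response, the chaperones Hsp90b1 (0.47 ± 0.08) and Pdia3 (0.26 ± 0.08) rose and none fell. Of 12 other folate and one-carbon enzymes Atic rose (0.23) and Amt fell (-0.37), and of 12 tested other amino acid transporters Slc38a1 rose (0.43) and Slc1a1 fell (-0.85).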

How the data were processed

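Members and gene lists were chosen with earlier results of these data known. Per the file headers, both tables give RefSeq transcripts with raw counts as deposited. The submitters' processing notes list CASAVA 1.8, Bowtie, DESeq2 and the build mm9 without roles. How reads were counted, and with which strand setting, is not stated in the labels. Overlapping, antisense and closely related genes are therefore uncertain as single genes. Peak heights are values the authors deposited as log2 numbers with a decimal comma; 6 single-library and 4 pooled columns of that table were not used. Exon lengths were not used, so levels are not compared between genes.

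The 18 RNA libraries entered 1 fit of 6 group means in edgeR 4.0.16 (R 4.3.3; filterByExpr, TMM scaling, quasi-likelihood F test, 12 residual degrees of freedom, or 10 with the block), with Benjamini-Hochberg adjustment over all genes tested at 0.05. CPM values are TMM-scaled, and 2377 blank lines of the intronic table were dropped. Each SE was taken as the absolute log2 change over the square root of F. The code was tested on simulated data. Deviations from group means of same-numbered DOX and withdrawn libraries of a phase correlated over genes at 0.159 to 0.559 in exons and 0.104 to 0.471 in introns (9 pairs each). Differently numbered ones correlated at -0.5 to 0.27 and -0.402 to 0.155 (18 pairs each). Deviations from a group mean cancel within the group, so low values for different numbers follow in part from high values for the same number. Number 2 was least clear. In exons, early G1 withdrawn 2 correlated at 0.203 with DOX 2 and 0.27 with DOX 3. G2 DOX 2 correlated at 0.159 with withdrawn 2 and 0.174 with withdrawn 3. Replicate numbers, which come from the labels' titles, were taken as pairs with these limits. Values in every library are given for Atf4, Ddit3, Trib3, Chac1, Asns and members called in exons with or without the block, at most 12 of these by smallest p; other members are given by change and counts, and genes of other lists where called, at most 3 a list by smallest p. Sesn2, Cebpg and Shmt2, called with the block, fell outside that limit, and Gdf15, the intronic levels and the list genes called only with the block were chosen after their values were seen. DESeq2 1.42.0, other scaling, no filter, single-phase fits, summed counts and leaving out each library were the alternatives; the summed counts with the block were added later. Sequences are RefSeq's (GRCm38.p6); 7 members had no window of the full length used.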

Additional observations from a re-analysis of the deposited data

How the results depend on the processing

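Counts of members called moved with the replicate block from 0 in each phase to 4 for early G1, 4 for late G1 and 3 for G2, and from 7 to 15 in the mean of the phases (exons), and in introns from 0 to 2 in G2 and from 2 to 9 in the mean. In the exonic mean, members that fell went from 10% to 20%, and all genes from 8.47% to 18%. Those that rose went from 7.5% to 17.5%, and all genes from 8.43% to 18%, so the exonic move was near that of all genes. In the intronic mean, all genes that fell went from 1.62% to 7.44%. DESeq2 gave 1 in early G1 exons and 4 in introns over the mean. Counts summed over the phases gave 0 in both layers. With the replicate block they gave 4 that fell and 1 that rose in exons, and 4 in introns. Leaving out 1 library at a time gave 2 to 8 members in exons and 1 to 3 in introns over the mean of the phases, the intronic count being 1 in 9 of 18 fits, and 0 in every phase, phase comparison and difference in response.

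Among single genes, Atf4 missed the threshold under RLE scaling (adjusted p = 0.054) and without the filter on low counts (0.0601). Ddit3 in late G1 exons turned from -0.01 to 0.016 without the filter and to 0.009 with the libraries of that phase alone. Leaving out 1 library also turned the sign of Chac1 in late G1 (-0.82 to 0.16) and G2 (-0.76 to 0.14), Ddit3 in late G1 (-0.21 to 0.13) and G2 (-0.14 to 0.17), Ddit4 in late G1 (-0.0013 to 0.53), Yars in early G1 (-0.0029 to 0.50) and exonic Slc7a5 over the mean (-0.05 to 0.061). Asns and Trib3 lost their calls in 5 of 18 such fits, and Psat1 in 13. No median of the members moved by more than the median SD of single members between libraries (0.173 in exons and 0.131 in introns). A median over the members should vary less than a single member, so this does not show that the medians were stable. The exonic median in early G1 changed sign without DOX replicate 1 of that phase. The cause of these shifts was not tested. Depth limits Chac1 and Cebpb most among the genes described by library, with as few as 37 and 90 counts. The share of members with a peak was 67.5% at 50 kb in place of 40% at 10 kb.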
